A study of Mus musculus with 20 samples.

Results

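The cytosolic ribosome translates messenger RNA in every cell, and its protein shell is built from about equal molar amounts of many small, basic ribosomal proteins, named Rpl in the large subunit and Rps in the small subunit. In mammals most of their mRNAs start with a terminal oligopyrimidine (TOP) tract, a C followed by pyrimidines, through which the kinase complex mTORC1 and the binding protein Larp1 set how much of each mRNA is translated. Skeletal muscle has a particular case, Rpl3l, a paralogue of Rpl3 that is made almost only in muscle and heart and takes the place of Rpl3 in a share of the ribosomes.

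The 92 genes described here were chosen by symbol among the 55401 genes of the count table: protein-coding genes whose symbol is Rpl or Rps followed by a digit, with Rplp0, Rplp1, Rplp2 and Rpsa, and without the Rps6k kinases and the pseudogene classes. Of these, 46 are large subunit genes, 31 are small subunit genes and 7 are paralogues of such genes (Rpl3l, Rpl7l1, Rpl10l, Rpl22l1, Rpl36al, Rpl39l and Rps27l). Another 7 have the symbol of a copy, ending in -ps and a number or in rt, but are still classed as coding by the annotation, such as Rpl9-ps6. Rps19bp1 fits the letters of the rule but encodes a protein that binds Rps19 and is no ribosomal protein. A count in at least 1 mouse was found for 89 genes, and 83 passed the filter on low counts that is needed for a test. The 9 that did not pass were Rpl10l, Rpl39l, Rpl24 and 6 of the copies.

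The RNA came from calf muscle (gastrocnemius) of 20 C57BL/6 mice aged 24 months, and ribosomal RNA was removed before sequencing. HK-treated mice (n = 10) drank HK, a standardized extract of Salvia haenkei, at 0.5 mg per kg per day from 20 months of age for 4 months, and untreated mice (n = 10) did not. Each group held 5 males and 5 females, and the libraries belonged to 2 sequencing experiments, batch 1 with 4 mice and batch 2 with 6 mice of each group. Every library is bulk muscle, so fewer cells of a type and less RNA per cell cannot be told apart. Genes of the fast fibre contractile apparatus summed to between 124368 and 180030 CPM (counts scaled to library size) per mouse, in every library.

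Total counts ran from 13994011 to 30469644 in batch 1 and from 13900180 to 17951683 in batch 2, and the share of the mitochondrial genome had a median of 8.45% in batch 1 and 8.44% in batch 2. Markers of other cells differed between the batches: the summed CPM of 13 macrophage genes was between 23.5 and 80.1 in batch 1 and between 72.9 and 324.8 in batch 2. None of these 13 genes was at 0.

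TOP starts are visible in the reference sequence of part of the genes. The RefSeq table held 78 start sites for 66 of the 92 symbols on GRCm38.p6, and 14 of the 78 (17.9%) had a C at the annotated start followed by 4 pyrimidines, against 2.51% of all 32851 start sites in the table and 0 of 75 start sites of mitochondrial ribosomal protein genes. The letters CTTTCC on the sense strand are a stretch common in TOP starts. They lay within the 300 bases around 38.5% of the start sites of the ribosomal protein genes. The share was 20% for mitochondrial ribosomal protein genes and 14.1% for all start sites. An annotated start that is some bases off hides such a tract, so these shares describe the table. A run that begins within 10 bases of the start was found at 53.8% of the start sites of the ribosomal protein genes. The share was 41.3% for mitochondrial ribosomal protein genes and 30.7% for all start sites, so such runs are not particular to the cytosolic set. The start sites below run from 15 bases before to 15 bases from the start. Capitals mark the pyrimidines that begin with a C at the start. They show the tract in genes whose counts are described later. At the first of the annotated starts of Rpl3l no run begins at the start itself, but one begins within 10 bases of it.
Rpl15, chr14:18270972-18271001, minus strand: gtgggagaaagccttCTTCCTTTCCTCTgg
Rpl28, chr7:4792950-4792979, plus strand: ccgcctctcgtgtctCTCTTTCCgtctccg
Rplp2, chr7:141447636-141447665, plus strand: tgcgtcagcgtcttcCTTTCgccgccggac
Rps6, chr4:86857353-86857382, minus strand: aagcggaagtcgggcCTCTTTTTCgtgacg
Rps18, chr17:33955651-33955680, minus strand: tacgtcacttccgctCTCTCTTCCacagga
Rps27, chr3:90213634-90213663, minus strand: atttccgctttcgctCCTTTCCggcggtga
Rpl3l, chr17:24727811-24727840, plus strand: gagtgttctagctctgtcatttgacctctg
Of these, the run was longest in Rpl15, with 13 pyrimidines, and 5 in Rplp2, which encodes an acidic protein of the ribosomal stalk.

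All 92 genes together took about 1% of the counts. Their share was 0.850% at the lowest, 1.01% at the median and 1.08% at the highest in HK-treated mice, and 0.870%, 1.01% and 1.23% in untreated mice. The groups overlapped widely. Within the sum, large subunit genes had 1.37 to 1.44 times the counts of small subunit genes in HK-treated mice and 1.36 to 1.43 times in untreated mice, so the proportion of the subunits barely moved from mouse to mouse. The sum was lower in batch 1, at 0.850% to 1.002%, than in batch 2, at 0.959% to 1.23%.

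**Figure D1:**
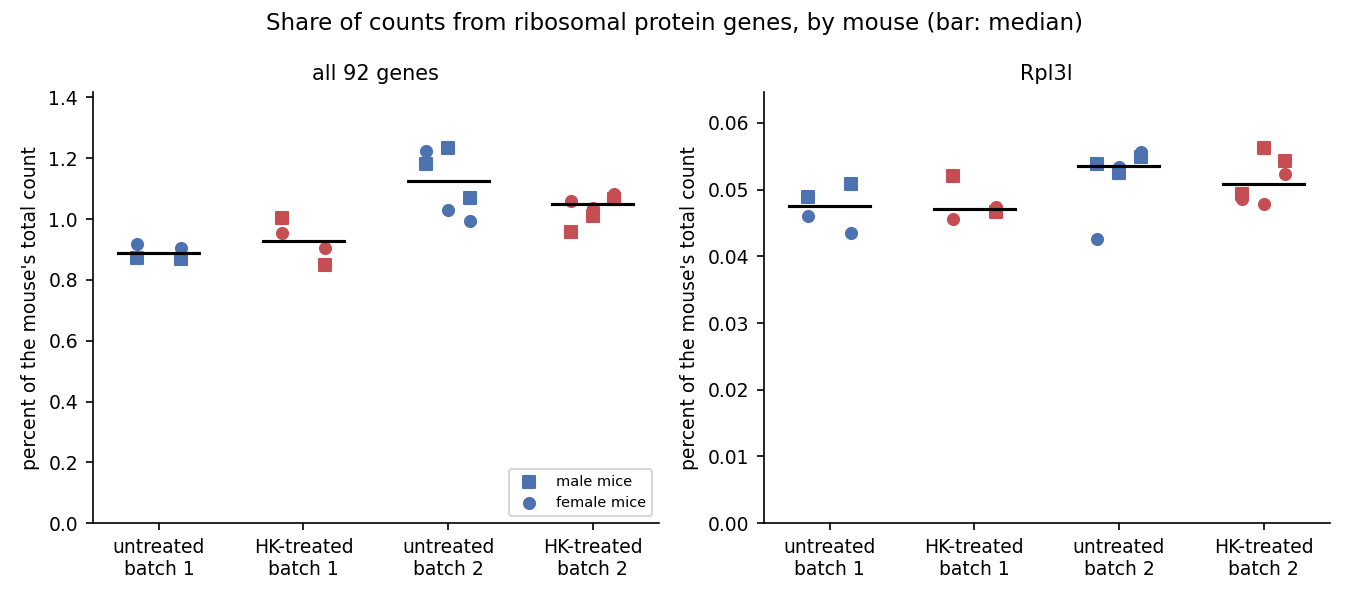
Percent of each mouse's total count that fell in the 92 ribosomal protein genes (left) and in Rpl3l (right), by treatment group and batch, with 1 point per mouse (squares males, circles females) and a bar at the median. Untreated mice of batch 2 have the highest median for all genes, 1.12%, and untreated mice of batch 1 the lowest, 0.888%.

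Levels of single members spread widely. Per kilobase of mRNA the 76 subunit genes that passed the filter had a median of 144.1 CPM, with the 10th percentile at 52.4 and the 90th at 304.4. The 3 highest were Rplp1, the acidic stalk protein, at 613.1, Rps15 at 429.6 and Rpl4 at 427.6. Among all that passed, Rps10 at 1.03, Rpl36al at 1.74 and Rpl9-ps6 at 2.86 CPM per kilobase were lowest.

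Much of the sequence of these genes is shared with other genes. Each representative mRNA was split into all its windows of 75 bases, the length of the sequencing kit, and the share of windows that occur in no other annotated transcript was counted. In 18 of the 76 subunit genes fewer than 25% of the windows were their own, and in 9 genes 90% or more were. In Rpl24, Rps10, Rpl13a and Rpl36al the gene that shared most windows overlaps them on the genome, and these 4 genes had only 50, 191, 1847 and 332 counts over all 20 mice, while those overlapping genes had 0 or 1. Rpl35, also with an overlapping gene, had 16704 counts. Rps27 had 36637 counts with 1.48% of windows its own, and Rps12 had 50159 with 10.5%. Across the 76 genes the rank correlation of the share of own windows with CPM per kilobase was 0.229, given as a description. The part of shared sequence in these levels was not tested. The handling of reads that match several genes is unknown here, so values of members with shared sequence are uncertain.

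**Figure D2:**
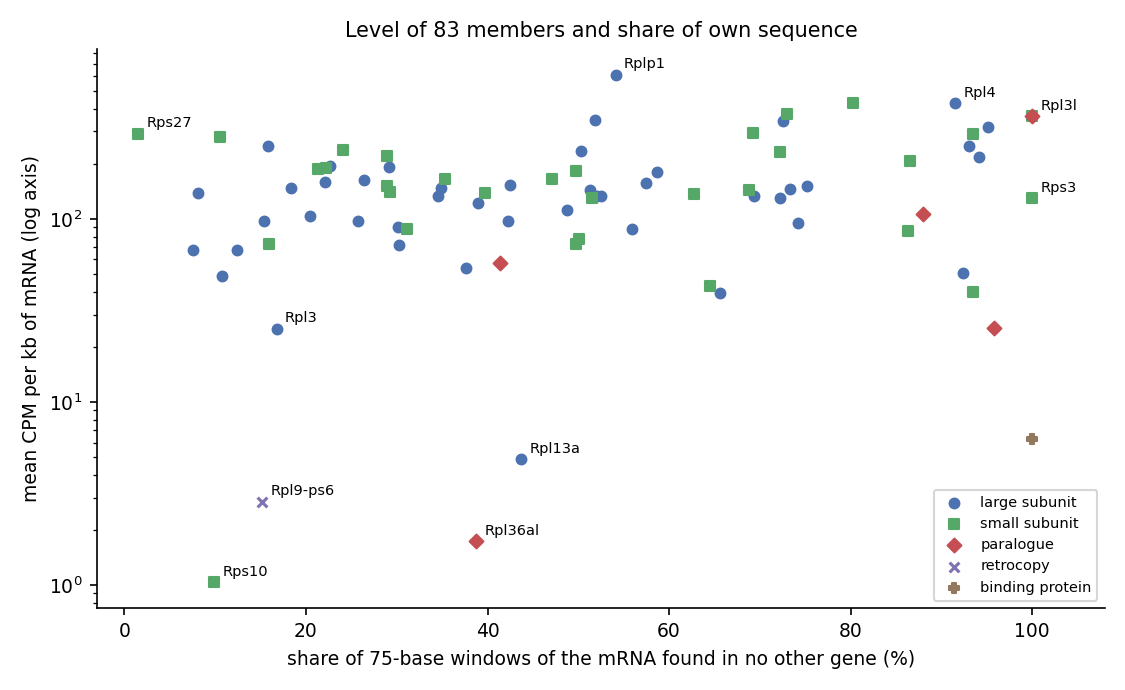
Mean CPM per kilobase of mRNA over the 20 mice (log axis) of the 83 members that passed the filter against the share of their 75-base windows found in no other gene, with symbols for each class. Rps10, Rpl36al, Rpl9-ps6 and Rpl13a lie lowest, and Rplp1, Rps15 and Rpl4 highest.

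HK treatment was compared first, as the study asked which muscle genes differ after the extract. No member passed the test between HK-treated and untreated mice. Of the 83 tested, 0 passed an adjusted p of 0.05 in edgeR's quasi-likelihood test, adjusted for batch and sex, with Benjamini-Hochberg adjustment over 13626 genes, beside 0 called (0%) over all genes tested. The groups overlapped for every member, as for every gene tested (0% not overlapping). Log2 fold changes ran from -0.22 to 0.34, with a median of -0.01, against 0.0024 over all genes, and 29 members were above 0. The median was above 0 without untreated Female_3 (0.0144), HK-treated Male_3 (0.0123) or untreated Male_4 (0.0009). It was lowest without HK-treated Male_1, at -0.0433 with 17 of 83 members above 0. At an unadjusted p under 0.05 there was 1 of the 83 members, Rpl27a, beside 835 of all 13626 genes. DESeq2's Wald test and limma voom also called 0 members. Over all genes the Wald test called 6 higher and 1 lower of 9082, and limma voom 0 of 13626. How closely a change was bounded differed between members. The 95% interval of Rps3, a small subunit protein near the mRNA entry and the member that varied least, was from -0.13 to 0.04 on the log2 scale. That of Rps10, the member that varied most, was from -0.37 to 0.63, and that of Rpl3 from -0.55 to 0.10.

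Large subunit genes (45 tested) and small subunit genes (31 tested) had medians of -0.01 each. Rpl27a, a large subunit gene on chromosome 7 (ENSMUSG00000046364, 109519147 to 109522367), had the lowest p. Its level was 26.6 CPM at the lowest, 51.4 at the median and 65.2 at the highest in HK-treated mice, and 20.3, 40.2 and 57.0 in untreated mice. The ranges overlapped over most of their length. The log2 fold change was 0.34 (standard error 0.15, adjusted p = 0.795), 0.59 in females alone and 0.07 in males alone. The difference between the sexes did not pass (log2 difference -0.52 in males against females, adjusted p = 0.998). Rpl22l1 had 26.2, 31.8 and 43.6 CPM in HK-treated mice and 24.8, 29.1 and 40.2 in untreated mice. Its log2 fold change was 0.12 (adjusted p = 0.832), and that of Rpl10a 0.06 (adjusted p = 0.856).

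Among members with lower values, Rplp0 had 381.0, 442.6 and 499.2 CPM in HK-treated mice and 393.0, 481.4 and 604.1 in untreated mice (log2 fold change -0.07, adjusted p = 0.832). Rpl31 had a log2 fold change of -0.07 and Rpl3 of -0.22, both with an adjusted p of 0.832. The other members named for a reason set apart from their values did not pass either. Rpsa, the small subunit protein also known as the laminin receptor, was at -0.07, Rplp1 at 0.05 and Rplp2 at 0.06. Rps6, the target of the S6 kinases whose phosphorylated form the study blotted, had 57.5, 63.7 and 72.6 CPM in HK-treated and 55.8, 63.9 and 83.8 in untreated mice. Its log2 fold change was -0.02 (95% interval from -0.13 to 0.09).

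Within each batch alone the members leaned to opposite sides. HK-treated mice had the higher fitted value for 79 of 83 members in batch 1 (median 0.09) and for 10 of 83 in batch 2 (median -0.07), and 0 were called in either. In batch 1, HK-treated Male_1 had the highest summed CPM of the 92 genes, at 10704. The other HK-treated mice of that batch had 8657 to 9342, and the untreated mice 8400 to 9406. Members also varied together (median r between pairs 0.692 after removal of treatment, sex and batch), so they are not separate observations. The interaction of treatment with batch was negative for 80 of 83 members, with a median of -0.17 against -0.0003 over all genes. Of the 83, 8 reached an unadjusted p under 0.05, where 217 positive and 199 negative of all 13800 genes did. An adjusted p under 0.05 was reached by 0 members (lowest 0.9997, with 0% called over 13800 genes), so a difference between the batches is not shown for any member. Macrophage markers also varied over treatment and batch: the median summed CPM was 52.1 in HK-treated and 49.2 in untreated mice of batch 1, and 150.6 and 198.7 in batch 2. The means in batch 1 ran the other way, at 50.15 and 53.41. Other lists ran differently. The median of fibro-adipogenic markers was lower in HK-treated mice in both batches (320.1 against 390.6, and 584.8 against 818.8). That of blood markers was higher in both (74.3 against 71.9, and 170.9 against 107.6). The part of these markers in the pattern was not tested. For sex, 0 members were called in the interaction with treatment (0% called), with 65 of 83 negative and a median of -0.06.

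**Figure D3:**
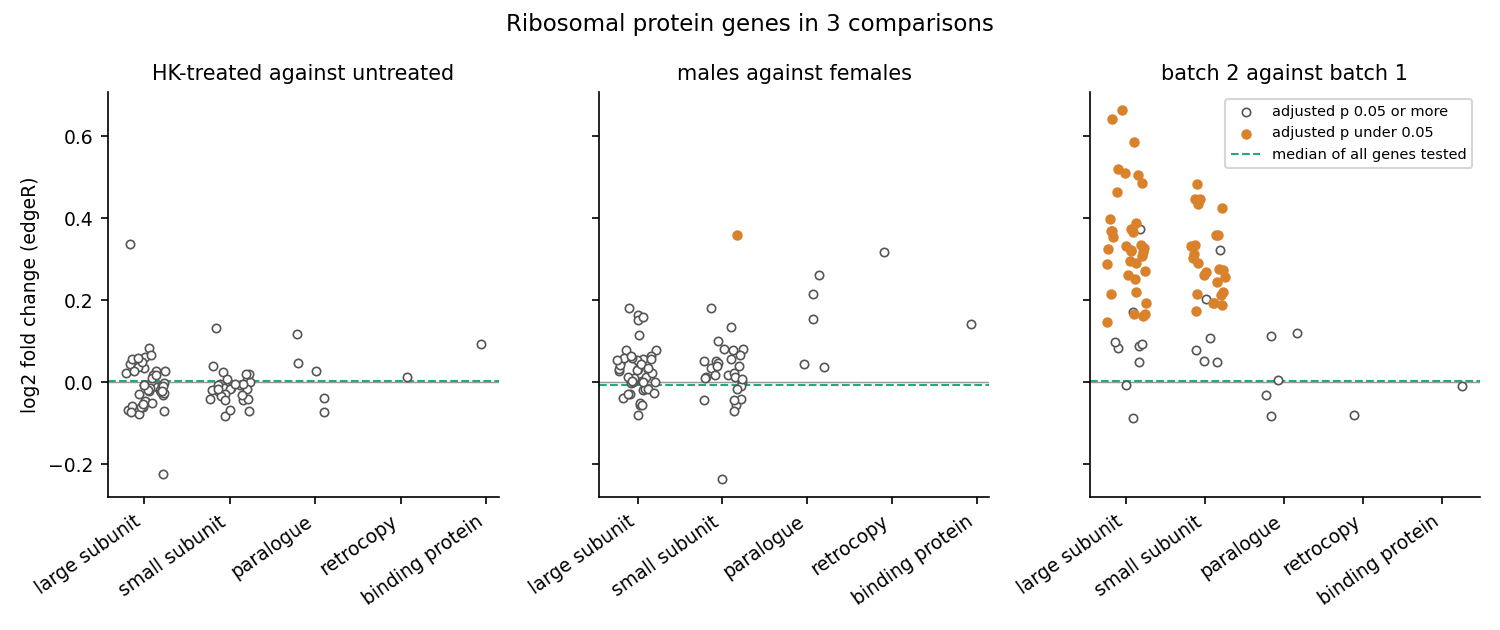
Log2 fold changes of the 83 tested members in the 3 comparisons, by class, with 1 point per gene (filled: adjusted p under 0.05) and a dashed line at the median of all 13626 genes. Points gather around 0 for treatment, 1 point is filled for sex, and 61 are filled and above 0 for batch.

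Batch gave the widest movement of the group. Of 83 members, 61 were higher in batch 2 and 0 lower, where 18.2% of all genes tested were called higher and 19% lower (37.1% in either direction). The median log2 fold change was 0.27, against 0.0025 over all genes. Large and small subunits moved alike: 36 of 45 large subunit genes (median 0.32) and 25 of 31 small subunit genes (median 0.27) were called. For 9 members every mouse of batch 2 lay above every mouse of batch 1, as for 1.06% of all genes in this direction, and for 0 every mouse lay below, as for 2.68%. Batch is a technical label of the sequencing experiments, and the mice of the batches are different animals, so a technical and a biological source cannot be told apart.

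Rpl29, a large subunit gene on chromosome 9, had the lowest p. Its level was 27.3 CPM at the lowest, 31.4 at the median and 34.7 at the highest in batch 1, and 39.3, 49.9 and 56.5 in batch 2. The batches did not overlap. The log2 fold change was 0.66 (95% interval from 0.52 to 0.81), or 1.58-fold. Rpl28, whose start carries 8 pyrimidines above, ranged from 81.6 to 99.2 CPM in batch 1 and from 108.3 to 145.6 in batch 2, a log2 fold change of 0.52 (adjusted p = 2.893e-06). Rpl10a ranged from 34.7 to 44.1 CPM and from 49.97 to 62.8, a log2 fold change of 0.51. Of their windows, 30.3% of Rpl29, 51.3% of Rpl28 and 12.4% of Rpl10a were their own.

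Some members were not called. Rpl15, which has the longest pyrimidine run above, was at 73.3 to 96.7 CPM in batch 1 and 70.7 to 82.5 in batch 2, a log2 fold change of -0.09 (adjusted p = 0.177). Rps27l was at -0.08 and Rpl9-ps6 at -0.08, neither called. Rpl4 had 576.5 to 726.7 CPM in batch 1 and 617.5 to 770.2 in batch 2 (log2 fold change 0.09, adjusted p = 0.198). None of the 5 paralogues tested was called, with a median of 0.0063, and Rpl3l was at 0.11 (adjusted p = 0.142). Among the subunit genes with a start in the RefSeq table, 9 of the 13 with a pyrimidine run at the annotated start were called (median 0.26) and 34 of the 43 without one (median 0.31).

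The direction was the same within each group and sex, with different counts. Untreated mice alone gave 57 called members (median 0.36), where 8.05% of all genes were called higher, and HK-treated mice alone 16 (median 0.19), where 5.1% were. Females alone gave 52 (median 0.32), where 5.6% of all genes were called higher, and males alone 30 (median 0.24), where 13.2% were. All of these members were higher in batch 2. Other gene lists moved with batch as well. Of the 13 macrophage markers, 12 were higher in batch 2 (median 1.77). All 9 fibro-adipogenic markers (median 0.996), all 7 blood markers (median 1.25) and all 6 markers of regenerating or denervated fibres (median 1.18) were also higher. The remaining marker lists moved less, with 2 of 9 endothelial, 2 of 6 adipocyte, 1 of 5 satellite cell and 1 of 7 fast fibre genes called higher. Of 7 slow fibre genes (median 0.35) and 6 Schwann and nerve genes (median -0.17), 0 were called. The part of such cells in the values of the members was not tested. Mitochondrial ribosomal protein genes had 15 of 77 called higher and 1 lower (median 0.07), and proteasome subunit genes 3 of 38 higher and 6 lower (median -0.0064).

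Between the sexes 1 member passed the test. Rps14, a small subunit protein at the mRNA exit, on chromosome 18 (ENSMUSG00000024608, 60747098 to 60778546), was higher in males. Its level was 208.6 CPM at the lowest, 247.7 at the median and 310.4 at the highest in males, and 173.9, 193.3 and 234.9 in females. The ranges overlapped between 208.6 and 234.9. The log2 fold change was 0.36 (95% interval from 0.23 to 0.49, adjusted p = 0.000308), or 1.28-fold, with 0.44 in batch 1 alone and 0.30 in batch 2 alone. Across all genes tested 8.79% were called higher in males and 7.33% lower, so 1 of 83 members is a smaller share than the 16.1% in either direction. The sexes did not overlap, with males higher, for 0.939% of all genes and, with males lower, for 0.389%, and every member overlapped.

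Other members lay closer to 0, with 61 of 83 above it and a median of 0.03. Rpl22 had 115.7 to 155.0 CPM in males and 100.5 to 126.5 in females (log2 fold change 0.16, adjusted p = 0.0532), and Rpl35a was at 0.18 (adjusted p = 0.0617). Rpl3l had 483.7 to 575.3 CPM in males and 403.9 to 561.6 in females (log2 fold change 0.15, adjusted p = 0.0767), and was called in batch 1 alone and by DESeq2's Wald test. Rplp0, Rps6 and Rpl30 had the lowest p among those with lower values in males, at -0.05, -0.07 and -0.08, with adjusted p from 0.402 to 0.491. The sign of this median was not stable. With scaling to total counts only it was -0.0150, while DESeq2 size factors (0.0380) and TMM without mitochondrial genes (0.0323) kept it above 0. Among subsets it was -0.0123 in batch 2 alone and -0.0107 without HK-treated Male_1. The number called also moved, to 5 without untreated Female_3 (1239 of all 13587 genes higher in males) and 6 without HK-treated Male_3 (1234 of 13581). It was 2 without each of untreated Male_1, untreated Male_2, HK-treated Male_2, HK-treated Female_3 and HK-treated Female_5, where 998 to 1193 genes were higher in males. Rps14 was called in each of these fits. In HK-treated mice alone 0 members were called, beside 398 genes higher in males and 253 lower of 13517. Rps14 did not pass the threshold there.

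None of the 4 members on the X chromosome was called between the sexes. Rpl10 had 103.1 to 131.8 CPM in males and 97.4 to 144.1 in females, Rpl36a 36.1 to 61.0 and 36.5 to 58.7, Rpl39 24.8 to 38.8 and 26.3 to 38.7, and Rps4x 148.4 to 171.0 and 140.8 to 201.8. Their log2 fold changes were between -0.04 and 0.05, with adjusted p from 0.631 to 0.995. Rps4x is the X-linked form of Rps4, whose partner on the Y chromosome in humans has no counterpart in the mouse.

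**Figure D4:**
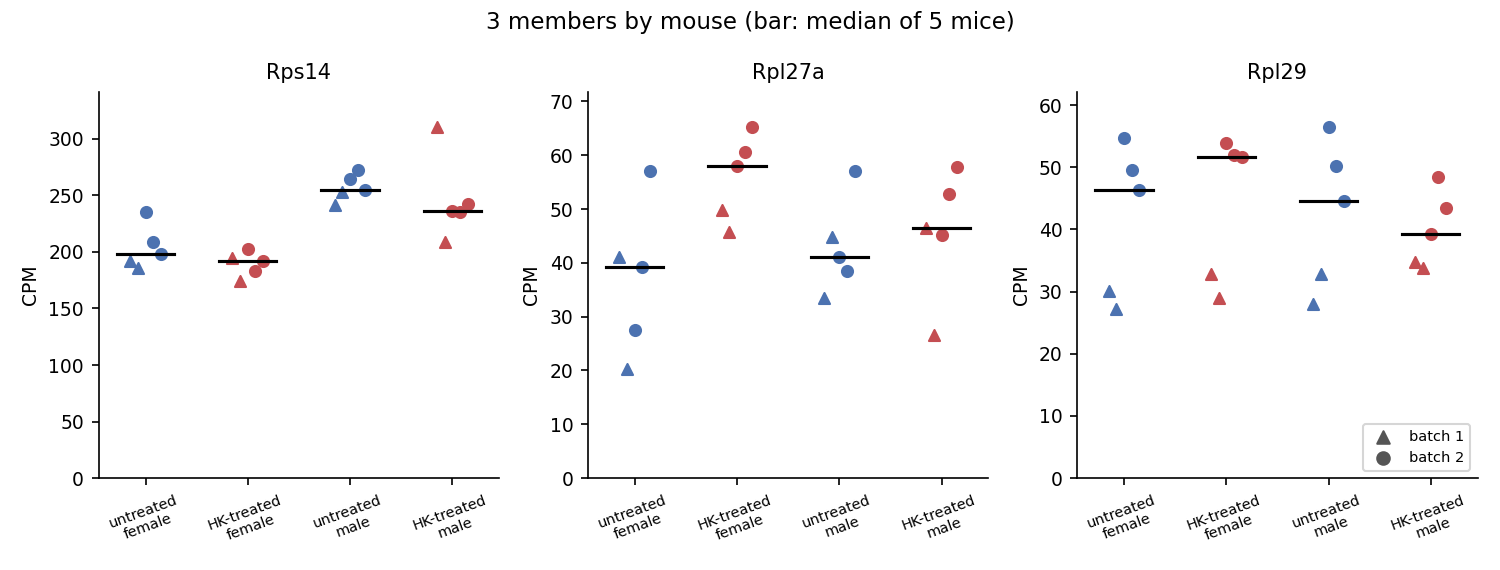
CPM of Rps14, Rpl27a and Rpl29 in each mouse by treatment and sex (triangles batch 1, circles batch 2, bar: median of 5 mice). Males lie higher for Rps14 (208.6 to 310.4 CPM against 173.9 to 234.9), the groups overlap for Rpl27a, and batch 2 lies above batch 1 for Rpl29 in every group.

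Rpl3l was compared with Rpl3 next. Both encode the large subunit protein that lies near the peptidyl transferase centre, and their coding sequences were identical at 74.3% of 1232 aligned bases. Rpl3l had 446.2 CPM at the lowest, 501.3 at the median and 575.3 at the highest in HK-treated mice, and 403.9, 515.1 and 561.6 in untreated mice. Rpl3 had 20.9, 30.4 and 41.2 CPM in HK-treated and 16.2, 31.9 and 61.3 in untreated mice. On the CPM scale Rpl3l was thus above Rpl3 in every mouse.

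Per kilobase the ratio of Rpl3l to Rpl3 was 12.5 at the lowest, 16.4 at the median and 26.0 at the highest in HK-treated mice, and 6.62, 14.7 and 33.1 in untreated mice. Its scale depends on the counting: all windows of Rpl3l are its own but only 16.8% of those of Rpl3, the rest shared mostly with Rpl3-ps1. Counted per own window, the ratio over all mice was 2.43, against 14.5 per kilobase of mRNA. The mean log2 ratio was 4.03 ± 0.310 (SD, n = 10) after HK and 3.83 ± 0.708 (SD, n = 10) without it. The difference in means of 0.21 did not pass (two-sided permutation test within sex and batch, p = 0.331). The sign differed between the batches, at -0.13 in batch 1 (p = 0.667 by exact permutation). It was 0.43 in batch 2 (p = 0.16 by exact permutation). Males against females gave 0.16 (p = 0.462 by permutation). This was 0.62 in batch 1 (p = 0.0556 by exact permutation, the smallest that this batch can give). In batch 2 it was -0.14 (p = 0.59 by exact permutation).

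Of the 5 pairs in which both genes passed the filter, Rpl3l was the only paralogue above its partner per kilobase. The median ratio in HK-treated mice was 0.108 for Rpl7l1 to Rpl7, 0.238 for Rpl22l1 to Rpl22, 0.367 for Rps27l to Rps27 and 0.0169 for Rpl36al to Rpl36a. None of the 10 tests (5 pairs by treatment and by sex) passed Benjamini-Hochberg adjustment, with adjusted p from 0.687 to 0.808. Rpl10l and Rpl39l, which are known from the testis, had 2 and 7 counts over all mice.

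Over the 20 mice the relation of the log2 CPM of Rpl3 and Rpl3l did not pass, with Pearson's r = -0.213 (permutation test, p = 0.369) and Spearman's rho = -0.158 (permutation test, p = 0.506). Without the 2 mice farthest from the median of Rpl3, r was 0.088. Within the batches r was -0.800 in batch 1 (n = 8, permutation test, p = 0.0153) and -0.568 in batch 2 (n = 12, permutation test, p = 0.0506). After adjustment over 10 within-batch relations of the 5 pairs, p was 0.0767 and 0.169. Rpl22 and Rpl22l1 were correlated over all mice (r = 0.657, permutation p = 0.00151, adjusted over 5 pairs 0.00755, rho = 0.555, permutation p = 0.0118, adjusted 0.0592). Over all pairs of members the median r was 0.692, taken after removal of treatment, sex and batch. Their r was 0.481 without the 2 mice farthest from the median of Rpl22, 0.888 in batch 1 and 0.363 in batch 2. In batch 2 it did not pass (n = 12, permutation test, p = 0.245).

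**Figure D5:**
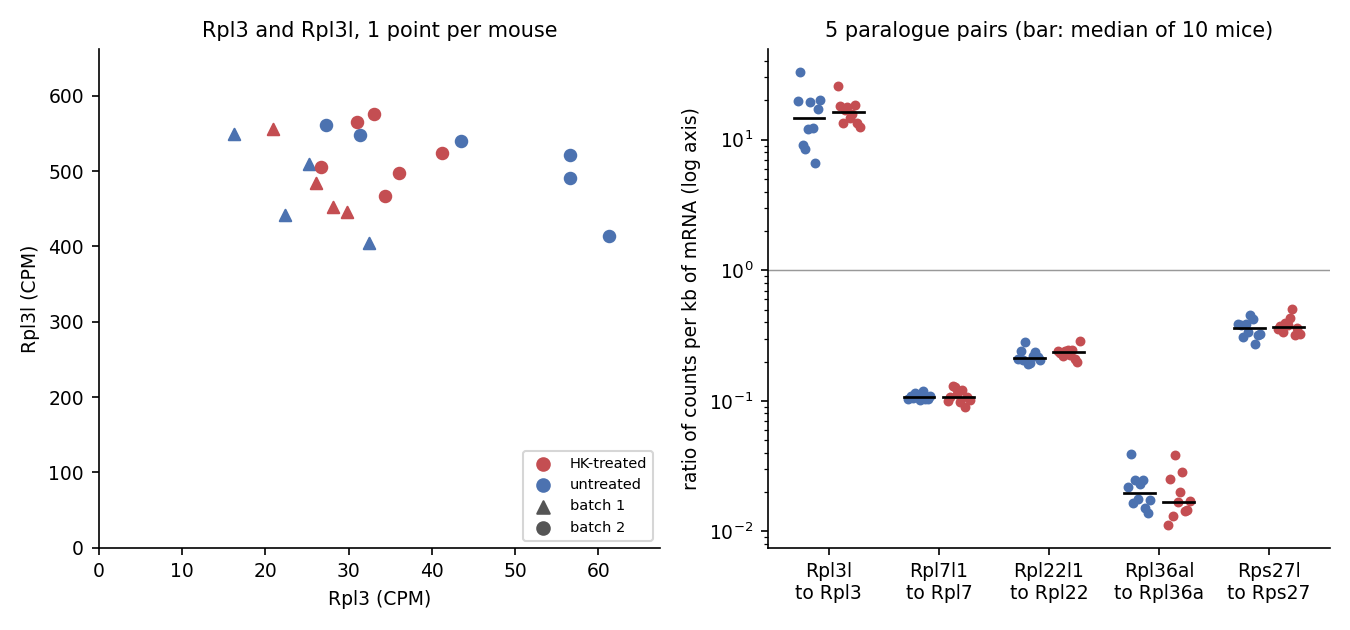
Left, CPM of Rpl3 and Rpl3l in each mouse, with colours for the groups and shapes for the batches. Right, ratio of each paralogue to its general form per kilobase of mRNA in each mouse (log axis, bar: median), where only Rpl3l lies above 1, at medians of 16.4 and 14.7.

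Members varied little between mice. After removal of treatment, sex and batch, the SD of log2 CPM had a median of 0.131 over the 83 members, from 0.080 to 0.47, against 0.217 over all genes tested, 0.136 over 77 mitochondrial ribosomal protein genes and 0.126 over 38 proteasome subunit genes. Rps3 (0.080), Rpl9 (0.091) and Rpl31 (0.093) varied least. Rps10 (0.47), Rpl36al (0.424) and Rpl3 (0.391) varied most, and of these Rps10 and Rpl36al had few counts. What variation there was ran largely in common: the residual of a member correlated with the mean of the others at a median r of 0.829, against 0.698 within the mitochondrial ribosomal protein genes and 0.704 within the proteasome genes, as a description across genes that share library and scaling. Rps10 (-0.46), Rpl3l (-0.062) and Rpl27a (-0.006) were the members with a negative r.

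Several members serve as reference genes in RT-qPCR. The study lists RPL27 primers for human cells only, and its mouse primers include Gapdh. Rpl27 had 25.8 CPM at the lowest, 33.6 at the median and 39.7 at the highest in HK-treated mice, and 24, 33.5 and 43.2 in untreated mice. Its log2 fold change was -0.0063 (95% interval from -0.13 to 0.12). Its SD between mice was 0.136, that of Gapdh 0.154, of Rplp0 0.102, of Rps18 0.139 and of Rpl13a 0.207. All 5 were higher in batch 2, by 0.24 for Rps18 to 0.50 for Rpl13a on the log2 scale. Of all 10 reference genes listed, 0 were called for treatment or sex, 7 were higher in batch 2 and 1, Hprt, was lower.

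In each list of genes that make or use ribosomes, 0 were called for treatment, as over all 13626 genes. A difference is thus not shown, and a lack of difference is not shown either. Of 14 genes for elongation and other TOP mRNAs, 5 were higher in HK-treated mice (median -0.0079), and by batch 4 (28.6%) were called higher and 2 (14.3%) lower. Eef1a1, elongation factor 1 alpha, was 0.72 higher in batch 2 on the log2 scale (adjusted p = 0.000346), while its muscle form Eef1a2 was at 0.0001 (adjusted p = 0.999). Of 40 genes of ribosome biogenesis, 24 were above 0 for treatment (median 0.01), 3 (7.5%) were lower in males, near the 7.33% of all genes. In batch 2, 4 (10%) were higher and 6 (15%) lower, against 18.2% and 19% of all genes. Utp20, a factor of small subunit processing, was the lowest in males at -0.44 (adjusted p = 6.618e-05). Of 17 genes of mTORC1 and TOP control, 12 were above 0 for treatment (median 0.05). Deptor, a subunit that restrains mTOR, was at 0.24 and Myc, a factor that drives ribosome genes, at 0.87, both with adjusted p = 0.795. Of 6 noncoding hosts of small nucleolar RNAs, 4 were above 0 for treatment, 1 was higher in males and 1 lower in batch 2. Of the ribosome components that the symbol rule does not reach, Fau was 0.34 and Rack1 0.14 higher in batch 2 on the log2 scale.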

How the data were processed

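Gastrocnemius RNA of 10 HK-treated and 10 untreated mice was sequenced after removal of ribosomal RNA. The authors aligned reads with STAR 2.6.1c to GRCm38.p6 and deposited raw counts per gene (GENCODE M25), whole numbers with no normalization. How reads were counted (tool, strand, reads matching several genes) is not given in the sources used here. Symbols, classes and positions came from GENCODE M21 on the same build, which matched 55141 of 55401 identifiers. The 260 unmatched held 0.00127% of counts. Start sequences came from the RefSeq table for GRCm38.p6.

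Tests were run with edgeR 4.0.16 under R 4.3.3 (TMM, filterByExpr, quasi-likelihood test on treatment, sex and batch), with Benjamini-Hochberg adjustment over all 13626 genes tested and a threshold of 0.05. CPM are TMM-scaled, with a prior count of 2 on the log2 scale. Interactions were fitted over 13800 genes. Ratios were tested by two-sided permutation tests with 100000 resamples within strata, exact within a batch. Python 3.11.15, numpy 2.4.6 and pandas 2.3.3 did the rest. The edgeR fit was tested on simulated data. Alternatives were DESeq2 1.42.0, limma voom (limma 3.58.1), other scalings, no filter, pseudogenes added, a replicate block, other covariates, subsets and each mouse left out. Alternatives for the interaction with batch were added after seeing the data.

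Members, lists and tests were chosen with earlier results of these data known. Genes named are the 4 set apart in the rule, the paralogue pairs, reference genes, Rps6, members on X, the 3 lowest p per direction and comparison, and the extremes of level and spread. From other lists, called genes or the 2 lowest p for treatment may be named. Rpl24, Rpl35 and Rps12 were named after their values were seen. Total counts of 13900180 to 30469644 per mouse set the precision given by the standard errors.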

Additional observations from a re-analysis of the deposited data

Results flagged for a closer look

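In groups of 10 mice, a highest or lowest mouse was flagged where its gap to the next, divided by the range of the group, passed Dixon's 95% critical value. Of 90 groups checked, 11 were flagged. Each group mixes both sexes and both batches, and the measures are correlated, so the number that chance would give is not known.

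HK-treated Male_1, of batch 1, was the highest of its group for Rpl15 (96.72 CPM, next 83.49), Rpl22 (155 CPM, next 127.7), Rps14 (310.4 CPM, next 242.4) and the ratio of Rpl3l to Rpl3 per kilobase (25.97, next 18.53). Without this mouse the log2 fold change of Rps14 for males against females was 0.29 and still called. HK-treated Male_2 was the lowest of its group for Rpl27a, at 26.55 CPM (next 45.23), and without it the fold change of Rpl27a for treatment was 0.41. Untreated Female_3 was the highest of its group for Rps27 (141.7 CPM, next 112.5) and Rps4x (201.8 CPM, next 171). Untreated Male_2 was the highest of its group for the ratio of Rpl3l to Rpl3 (33.07, next 20.15) and of Rpl36al to Rpl36a (0.03901, next 0.0249). HK-treated Male_4 was the highest for Rpl36al, at 1.694 CPM (next 1.028), and HK-treated Female_5 for the ratio of Rpl22l1 to Rpl22, at 0.2886 (next 0.2462).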

How the results depend on the processing

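Members called for treatment stayed at 0 in 13 of 14 alternatives and in all 20 fits without 1 mouse. The fit without a filter called 1 of 89 members as higher, Rpl27a, and 1 as negative in each interaction. In the same direction it called 247 of all 30096 genes for treatment. It called 127 as negative in the interaction with sex and 98 in that with batch. Other genes were called in the opposite direction, but 0 members were. In that fit the degrees of freedom behind the test rose from 20.3 to 482000, so a gene's own spread counted for almost nothing. Mice with the same number were not taken as pairs in the fit reported. Their deviations from the fit correlated at -0.33 to 0.232, which cannot show whether they are paired, as few mice share a sex and batch. With the replicate block 0 members were called, with a median of -0.01. The median for treatment was 0.0897 in batch 1 alone, and -0.0433 to 0.0144 with a mouse left out. For sex, 1 member was called in the fit reported, 2 with DESeq2 size factors, 5 with DESeq2's Wald test, 2 in batch 1 alone, 0 in HK-treated mice alone, and 1 to 6 with a mouse left out. Over all genes, the size factors gave 1251 higher in males and 937 lower of 13626, and the Wald test 1427 and 1105 of 16653. Batch 1 alone gave 777 and 539 of 13664, and HK-treated mice alone 398 and 253 of 13517. For batch, 61 became 30 in males alone and 16 in HK-treated mice alone, and 60 to 66 with a mouse left out. The cause of these changes was not tested. The difference in the Rpl3l to Rpl3 ratio was -0.1257 in batch 1 alone for treatment and -0.1433 in batch 2 alone for sex. With a mouse left out it was 0.0839 to 0.3418 for treatment and 0.0387 to 0.2655 for sex.

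Single members that were not called changed sign as follows. For treatment, batch 1 alone gave 0.1275 for Rpl3, 0.0376 for Rpl31 and 0.0148 for Rplp0, batch 2 alone -0.0015 for Rpl10a, and total counts only -0.0044 for Rpl3l. For sex, Rpl3 was at 0.0170 with limma voom, 0.1749 in batch 2 alone, 0.0625 in untreated mice alone and -0.1010 to 0.0756 with a mouse left out, and Rpl30 at 0.0076 in batch 1 alone. For batch, Rpl15 was at 0.0248 in females alone and Rpl9-ps6 at 0.0623 in untreated mice alone. Rps10, Rpl24 and Rpl36al had too few counts for a small change to be seen.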

Other observations

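Lists that the comparisons above use only in part gave the following values for treatment, all with 0 genes called. Of 9 endothelial markers 9 were below 0 (median -0.24), of 9 fibro-adipogenic markers 9 (median -0.28) and of 13 macrophage markers 12 (median -0.29). Of 7 slow fibre genes 7 were below 0 (median -0.71), and of 7 fast fibre genes 2 (median 0.06). Untreated Male_3 stood apart among males in the summed CPM of the slow fibre genes, at 6333, where the other males of both groups had 771.2 to 1977. All 6 markers of Schwann cells and nerve were above 0 (median 0.32), as were 5 of 7 blood markers (median 0.46), 3 of 6 adipocyte markers (median 0.0082), 1 of 5 satellite cell markers (median -0.13) and 1 of 6 markers of regenerating or denervated fibres (median -0.56). The regenerating or denervated fibre genes summed to 424.8 CPM in untreated Male_5 and 251.1 in untreated Male_3, against 39.7 to 129.3 in the other mice.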
